A study of Mus musculus with 2 samples.

Results

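bAPC 3 is the third of 5 clusters of early brown adipocyte precursor cells (bAPCs) that the study separated in its brown culture, and its label table also calls these cells early preadipocytes B3. Its members were taken as every cell of the brown library with that label. The label table was held here only in part, for the first 1999 brown precursor cells in barcode order, and 8.55% of these 1999 cells were bAPC 3 (exact binomial 95% interval 7.36 to 9.87): 108 cells scored in the G2/M phases, 42 in G1 and 21 in S phase, described below. The brown file held 7009 cells in all and the series held 12270. They are compared with all remaining cells of the table, which comprised 296 committed adipocyte precursors (bCAPs), 279 fibro-adipogenic progenitor-like cells (bFAPLs) and, of the early clusters, 581 cells of bAPC 1, 415 of bAPC 2, 142 of bAPC 4 and 115 of bAPC 5.

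The study asked how far cultured white and brown preadipocytes keep the range of progenitor states found in tissue. Stromal vascular cells were released with collagenase from interscapular brown and subcutaneous white fat of newborn C57/BL6J pups, labelled P0 although the written methods name the day after, and no genotype or treatment differed between the cultures. Both sexes entered each culture, and the labels name no single animal. The plated cells reached confluency in 4 days and were then loaded on a droplet 3′ platform with molecular identifiers (UMIs), so the cells had adapted to culture and had not come straight from tissue. There was 1 library per depot: 205551320 UMIs in the brown one (median 26411 per cell) and 144451047 in the white one (5261 cells, median 26239). With no replicate library, all values below compare cells of 1 library or of a pair of libraries, and no p-value is given. Intervals are exact 95% intervals and cover counting error only. The clusters were also drawn from these same counts, so each difference between bAPC 3 and its neighbours is a description of the cluster and not a test of it.

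Brown and white adipocytes arise from fibroblast-like precursors that carry platelet-derived growth factor receptors, divide, and commit to the fat lineage when the nuclear receptor Pparg is induced. A dividing cell copies its DNA in S phase and switches on a shared set of genes in G2 and mitosis (G2/M), among them the cyclins that drive the cyclin-dependent kinase Cdk1, the kinetochore and spindle proteins, and the ubiquitin ligase parts that end mitosis. Many of these genes are kept silent in resting cells by the DREAM complex at a promoter element called the CHR and are switched on by B-Myb, FoxM1 and the CCAAT-binding factor NF-Y.

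bAPC 3 carried the markers that the study used for all its precursors. Its level of Pdgfra was 82.4 CPM (a gene's UMIs scaled to the summed UMIs of the same cells), against 82.8 CPM over the other brown precursors, and that of Dlk1, a secreted and membrane-bound preadipocyte protein, was 375 against 391 CPM. By gene-score phase calls, 108 of its cells were in G2/M (63.2%, 55.5 to 70.4), 21 in S phase (12.3%) and 42 in G1 (24.6%). The other brown cells had 312 cells in G2/M (17.1%, 15.4 to 18.9). The share ran from 12.0% in bAPC 4 to 19.6% in bCAPs, so the interval of bAPC 3 lay above those of all 6 other brown clusters. The study had regressed cycle scores out before it clustered. These calls rest on messenger RNA alone, and DNA content was not measured. In bAPC 3, 46 cells had scores within 0.05 of a boundary between phases, against 332 of all 1999 labelled cells.

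**Figure D1:**
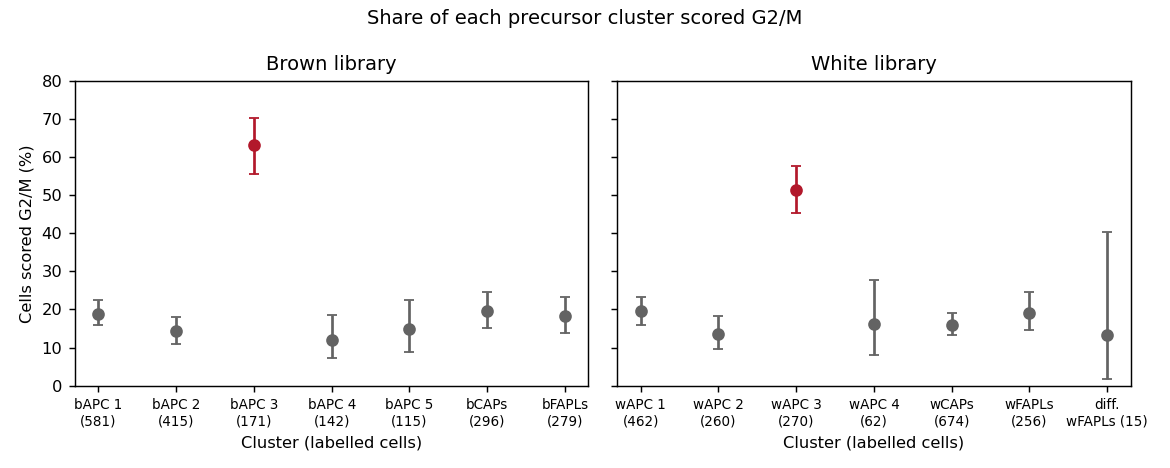
Share of cells scored G2/M (y axis, %) in each labelled precursor cluster of the brown (left) and white (right) library, with exact 95% intervals and the number of cells under each cluster. bAPC 3 at 63.2% and its white namesake wAPC 3 at 51.5% stand above all other clusters, which lie below 20%.

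The G2/M cells of bAPC 3 held few UMIs. They had a median of 22441.5 UMIs, against 34993 in the G2/M cells of the other brown clusters. In each of the other 6 clusters the G2/M cells had more UMIs than the G1 cells. Their G2/M medians ran from 27814.5 in bCAPs to 42175 in bAPC 4. In bAPC 3 the G2/M median was below the G1 median of 23705.5, and 79 of its 108 G2/M cells (73.1%, 63.8 to 81.2) lay under the lower quartile of the other G2/M cells. G1 cells were closer in depth, with 23705.5 UMIs in bAPC 3 and 25400.5 elsewhere. Over all phases bAPC 3 had the lowest median of the 7 brown clusters (23668, next bFAPLs with 25194), fewer genes per cell (5434 against 5817.5 in the others) and an equal share of mitochondrial UMIs (2.96% against 2.97%). Ribosomal protein genes took 20.2% of its UMIs and 20.3% of those of the others.

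**Figure D2:**
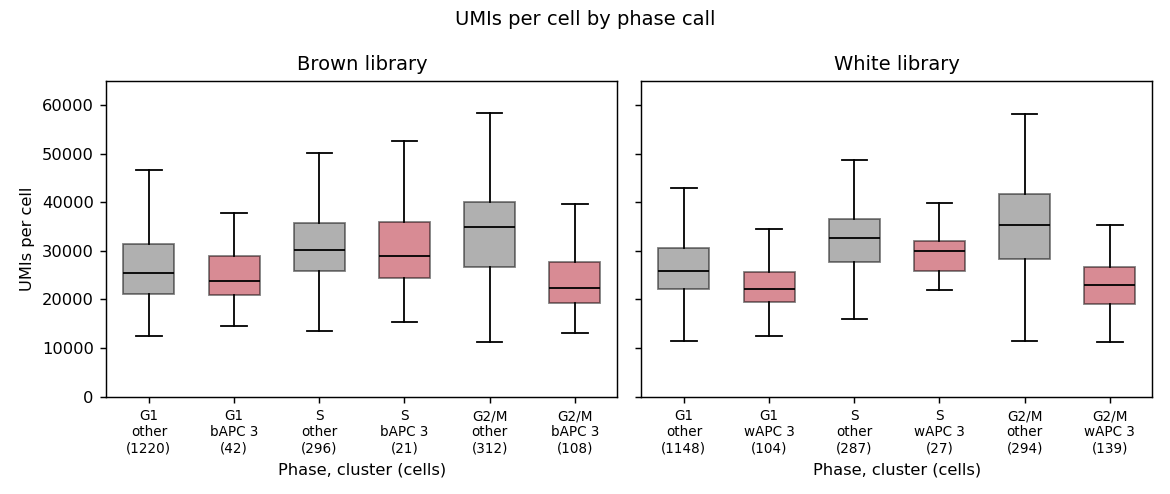
UMIs per cell (y axis) by phase call for bAPC 3 and the other brown clusters (left) and for wAPC 3 and the other white clusters (right); boxes span the quartiles with the median line, whiskers reach the last cell within 1.5 box lengths, and cell numbers are under each box. Pooled over the other clusters of a depot, G2/M cells hold more UMIs than G1 cells, whereas the G2/M cells of bAPC 3 (median 22441.5) and wAPC 3 (22902) are about as deep as G1 cells.

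Kif20a, a kinesin that carries the chromosomal passenger complex to the central spindle before cells divide, is one of the genes that the study used to mark bAPC 3 (ENSMUSG00000003779, GRCm38 chromosome 18, 34624613 to 34633277, plus strand). Its level was 71.7 CPM in bAPC 3 (63.96 to 80.05, 314 UMIs). In the other clusters it was 17.2 CPM in bAPC 4, 22.1 in bAPC 1, 22.1 in bAPC 2, 22.3 in bAPC 5, 27.9 in bFAPLs and 29.3 in bCAPs. bAPC 3 thus stood apart, with a log2 ratio of 1.60 (1.42 to 1.78) over the sum of the others at 23.6 CPM, while the other 6 levels lay close together. A Kif20a UMI was found in 72.5% of bAPC 3 cells (65.2 to 79.1) and in 24.7% of the others. With every cell thinned to 10000 UMIs these shares were 48.5% (40.8 to 56.3) and 12.97%. No brown cell type should lack Kif20a while it divides, so the other brown G1 cells served as the background: 8.20% of them had a UMI (median depth 25400.5), and 3.20% after thinning.

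Within phases, Kif20a set bAPC 3 apart in G1 cells and not in G2/M cells. Its level was 98.7 CPM in the G2/M cells of bAPC 3 and 96.7 CPM in those of the other clusters (log2 ratio 0.03), and 90.7% and 87.2% of these cells had a UMI. In G1 cells the difference was wider than over all cells, 31.5 against 3.87 CPM (3.02), and after thinning 21.4% of the bAPC 3 G1 cells had a UMI against the 3.20% given above. The G1 value rests on 42 cells.

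Over the 9019 genes of at least 10 CPM in bAPC 3 or in the other brown cells, 27 (0.299%) were at least 2-fold higher in bAPC 3 and 145 (1.61%) at least 2-fold lower, and the median log2 ratio was 0.00. The highest ratios of genes above 50 CPM were led by mitotic genes. Cenpa, the histone H3 variant that marks centromeres (ENSMUSG00000029177, chromosome 5, 30666777 to 30674830, plus strand), had 243 CPM in bAPC 3 against 63.8 in the others (log2 ratio 1.93, 1.83 to 2.03), and its other clusters ran from 45.1 in bAPC 4 to 75.5 in bFAPLs. Cdkn3, a phosphatase that acts on cyclin-dependent kinases, had 100 against 29.0 CPM (1.79). Ccnb2, a mitotic cyclin, had 129 CPM, against 22.5 in bAPC 4 to 49.5 in bFAPLs (1.69 over the sum of the others). Knstrn, a spindle and kinetochore protein, had 87.6 against 28.5 CPM (1.62). They were followed by the DNA-bending protein gene Hmgb3 (1.36), the mitotic entry factor Cdca3 (1.34), the activator of the anaphase-promoting complex Cdc20 (1.27), the histone gene Hist1h2bc (1.21) and the checkpoint kinase Bub1b (1.18). In all of these genes the level in bAPC 3 was the highest of the 7 brown clusters. Of the 100 genes with the highest log2 ratio, 25 belonged to a cycle list, as did 147 of the 9018 distinct gene symbols at 10 CPM.

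The mitotic genes were not all higher. The lists of mitotic roles and the Seurat G2/M list joined together held 113 genes, of which 102 reached 10 CPM: 11 were at least 2-fold higher in bAPC 3 and 11 at least 2-fold lower, with 60 above and 42 below 0 and a median log2 ratio of 0.17. Of all genes, 0.299% were at least 2-fold higher and 1.61% lower. All 113 genes summed to 6392 CPM in bAPC 3 and 5001 CPM in the others, and the Seurat G2/M list alone had a median of 0.38. The genes past 2-fold thus lay on both sides of a sum and a median that were higher in bAPC 3. The higher ones were Birc5, Bub1, Bub1b, Ccnb2, Cdc20, Cdca3, Cenpa, Cks2, Kif20a, Tacc3 and Tpx2. The lower ones were Aurkb, Ccnf, Cdca2, Fbxo5, Incenp, Kpna2, Ncapd3, Nusap1, Prc1, Top2a and Wee1. Both groups are known for work in the same phase, and some genes on opposite sides encode partners. The survivin gene Birc5 and the kinase gene Aurkb are both parts of the chromosomal passenger complex, with 241 against 110 CPM (log2 ratio 1.14) and 4.79 against 20.1 CPM (-2.07).

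The counts by role stand beside 0.299% of all genes at least 2-fold higher in bAPC 3 and 1.61% lower. The entry kinases and cyclins had 2 of 13 genes at least 2-fold higher and 2 lower (median 0.50). Among them Ccna2 was 0.89 and Cdk1 itself -0.88 (55.7 against 103 CPM, the lowest of the 7 clusters). Ccnf, an F-box protein of the cyclin family, had the lowest ratio of the joined lists, -2.53. The kinesins had 1 of 11 higher (median 0.20), with Kif23 at 0.78 and Kif11, the motor that separates spindle poles, at -0.86. Of 12 spindle assembly factors, 2 were higher and 2 lower (median 0.29), Tacc3 at 1.11 and Nusap1 at -2.22. Of 12 centromere and kinetochore genes, Cenpa alone passed 2-fold (median 0.10). The checkpoint list had 2 of 7 higher (median 0.05), and the anaphase list had 2 of 8 higher and 1 lower (median 0.19). The lower one was Fbxo5, an inhibitor of the anaphase-promoting complex, at -1.74, opposite to its activator Cdc20.

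Low values also stood among the genes of chromosome structure and cytokinesis. Top2a, the topoisomerase that untangles sister chromatids (ENSMUSG00000020914, chromosome 11, 98992943 to 99024189, minus strand), had 38.8 CPM in bAPC 3, against 99.3 in bAPC 2, 128 in bAPC 4, 158 in bFAPLs, 159 in bAPC 5, 180 in bCAPs and 182 in bAPC 1. The lowest of the others was thus more than 2-fold above bAPC 3, and the log2 ratio over their sum was -1.98 (-2.21 to -1.76). Prc1, which bundles the microtubules of the central spindle on which Kif20a also works, had 24.0 against 79.3 CPM (-1.73). The condensin and topoisomerase list had 2 of 10 genes at least 2-fold lower (median 0.10), and the cytokinesis list 2 of 8 (median -0.06), against 1.61% of all genes. The 5 genes of the G2/M transcription factor list at 10 CPM held none past 2-fold (median -0.45), and Foxm1 was 0.46. Few genes of any kind passed it (0.299% higher and 1.61% lower).

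**Figure D3:**
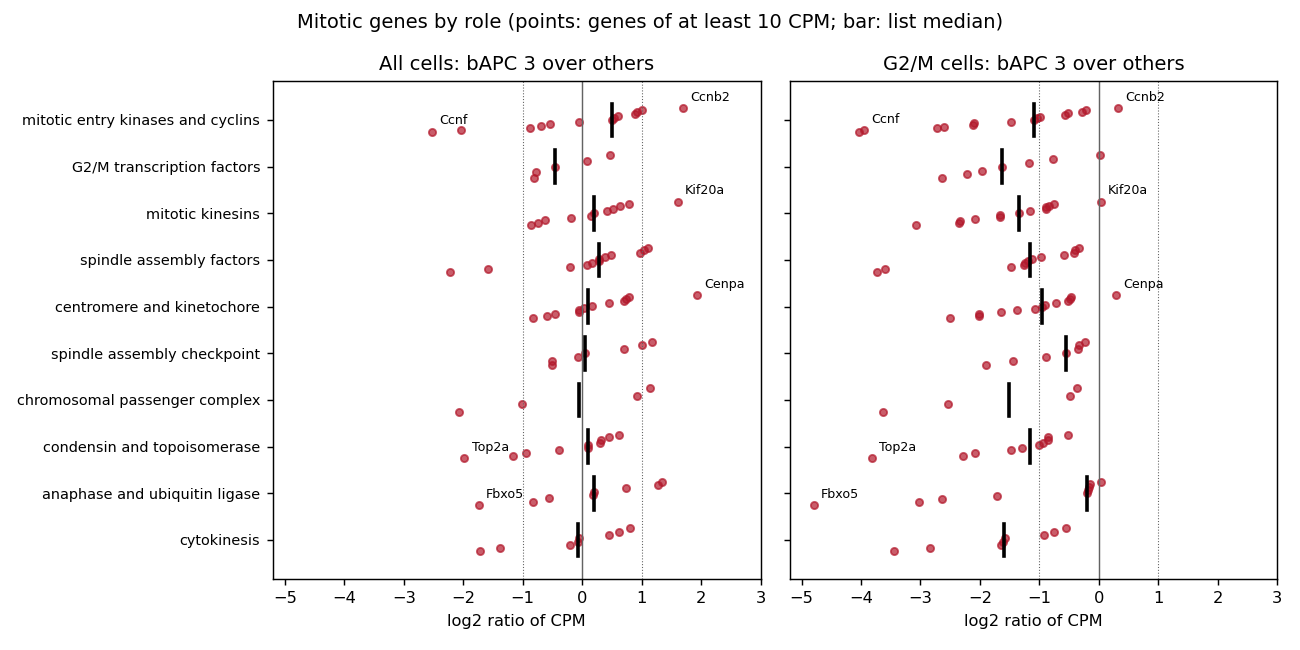
Log2 ratio of CPM (x axis) for genes of at least 10 CPM in 10 lists of mitotic roles, for all cells of bAPC 3 over the other brown clusters (left) and for G2/M cells alone (right); each point is 1 gene, the bars are list medians and dotted lines mark 2-fold. Genes spread on both sides of 0 on the left (medians -0.45 to 0.50), whereas nearly all lie below 0 on the right (medians -1.62 to -0.20).

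Promoter windows of the RefSeq table (GRCm38.p6, 250 bases before to 50 after the start, read 5′ to 3′ on the gene's strand) were searched for the elements named above. Shown are those of the 4 highest genes of the joined lists whose window held a CHR, so the CHR was a condition of their choice. The window of Top2a was added after its value was seen. Capitals mark the CHR (TTTGAA, or TTCAAA on the other strand) and the CCAAT box (CCAAT, or ATTGG on the other strand). The windows are Cenpa at chr5:30666636-30666935 on the plus strand, Ccnb2 at chr9:70421505-70421804 on the minus strand, Cdca3 at chr6:124829926-124830225 on the plus strand, Cdc20 at chr4:118437294-118437593 on the minus strand and Top2a at chr11:99024140-99024439 on the minus strand.
Cenpa: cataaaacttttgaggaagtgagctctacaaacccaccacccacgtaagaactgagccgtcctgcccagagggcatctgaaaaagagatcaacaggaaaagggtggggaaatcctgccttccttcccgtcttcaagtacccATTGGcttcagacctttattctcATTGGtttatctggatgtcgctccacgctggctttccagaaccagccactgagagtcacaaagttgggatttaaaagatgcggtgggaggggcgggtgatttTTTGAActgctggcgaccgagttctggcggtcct
Ccnb2: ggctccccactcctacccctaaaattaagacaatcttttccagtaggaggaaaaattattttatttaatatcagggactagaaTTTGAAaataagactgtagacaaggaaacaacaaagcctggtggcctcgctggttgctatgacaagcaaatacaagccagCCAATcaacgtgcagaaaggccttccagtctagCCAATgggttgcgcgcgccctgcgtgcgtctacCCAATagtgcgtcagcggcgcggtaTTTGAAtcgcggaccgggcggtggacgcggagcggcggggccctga
Cdca3: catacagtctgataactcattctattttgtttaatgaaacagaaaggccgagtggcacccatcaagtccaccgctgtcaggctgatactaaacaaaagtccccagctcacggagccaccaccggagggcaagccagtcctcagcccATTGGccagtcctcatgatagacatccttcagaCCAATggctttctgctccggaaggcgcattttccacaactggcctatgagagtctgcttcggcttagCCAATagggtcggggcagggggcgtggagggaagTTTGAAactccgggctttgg
Cdc20: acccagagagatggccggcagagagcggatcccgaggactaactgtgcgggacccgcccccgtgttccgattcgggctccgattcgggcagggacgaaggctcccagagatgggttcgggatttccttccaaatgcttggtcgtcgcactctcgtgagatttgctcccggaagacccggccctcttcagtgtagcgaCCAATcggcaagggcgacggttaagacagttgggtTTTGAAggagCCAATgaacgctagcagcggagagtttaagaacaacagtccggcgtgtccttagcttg
Top2a: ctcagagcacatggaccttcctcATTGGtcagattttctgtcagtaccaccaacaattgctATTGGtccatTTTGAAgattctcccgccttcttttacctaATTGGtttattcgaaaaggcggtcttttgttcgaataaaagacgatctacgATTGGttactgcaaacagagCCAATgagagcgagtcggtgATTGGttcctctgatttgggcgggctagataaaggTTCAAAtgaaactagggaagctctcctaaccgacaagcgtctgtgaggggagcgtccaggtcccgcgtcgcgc

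All 5 windows held both elements. The 4 genes with a high level were chosen for a CHR, so these windows cannot show whether the CHR differs between high and low genes. Counted from the start site, the CHR letters began at 16 in Cenpa, 30 in Cdca3, -18 in Cdc20, -167 and 4 in Ccnb2 and -179 and -23 in Top2a. Over all 27025 windows in the table, 18.1% held the CHR letters on either strand, 37.9% a CCAAT box and 7.12% both. Among the 7212 genes of at least 10 CPM with a window, these shares were 11.3%, 39.0% and 4.78%. Of the 97 genes of the joined mitotic lists with a window, 60.8% held the CHR, 71.1% a CCAAT box and 49.5% both. Of the 29 replication genes with a window, 10.3% held the CHR. Birc5 and Tacc3, both higher in bAPC 3, held neither element, and the same was true of Ncapd3 and Nusap1, both lower. The mitotic list genes at least 2-fold higher in bAPC 3 held the CHR in 5 of 9 windows (55.6%) and those at least 2-fold lower in 5 of 7 (71.4%). These are matches of letters in a fixed window and not sites of binding.

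When only G2/M cells were compared, bAPC 3 was lower for most of the mitotic program. These cells were chosen by the Seurat G2/M list, so this comparison is a description as well. Over 9068 genes, 37 (0.408%) were at least 2-fold higher and 334 (3.68%) lower. Of the joined mitotic lists, 112 of 113 genes reached 10 CPM, none was 2-fold higher, 59 were 2-fold lower and 106 lay below 0, with a median of -1.08 against 0.00 over all genes. The 11 genes that were higher over all cells lay close to 0 here (median -0.24, from -0.40 for Tacc3 to 0.32 for Ccnb2). The 11 lower ones were lower still (median -3.62). The Seurat G2/M list itself summed to 5747 CPM in the G2/M cells of bAPC 3 and 10425 CPM in those of the other clusters, with 51 of 54 genes below 0.

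Fbxo5 reached 2.65 against 73.4 CPM in G2/M cells (log2 ratio -4.79, -6.11 to -3.74, 7 UMIs in bAPC 3). Fam83d, a spindle protein gene, had 2 UMIs in bAPC 3 against 556 (-6.13, -9.17 to -4.27). Top2a had 40.8 against 573 CPM (-3.81, -4.10 to -3.54), and the G2/M cells of the single other clusters ran from 393 in bAPC 2 to 715 in bAPC 4. Nusap1, Aurkb and Prc1 were at -3.73, -3.62 and -3.44. Ube2c, a ubiquitin-conjugating enzyme of the anaphase-promoting complex, had 97.5 against 610 CPM (-2.64), and Cdk1 57.8 against 350 CPM (-2.60). Against these stood Cenpa with 319 CPM in bAPC 3 (298 to 342), at the upper end of its range of 217 to 309 in the G2/M cells of the other clusters. The highest of these, bAPC 2 with 309 (286 to 335), had an interval that overlapped that of bAPC 3.

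Cenpa and Top2a therefore came apart in single cells. After thinning to 10000 UMIs, 73 of 108 G2/M cells of bAPC 3 (67.6%, 57.9 to 76.3) had a Cenpa UMI and none of Top2a, against 35 of 312 (11.2%, 7.94 to 15.3) in the other clusters. Cells with both made up 29.6% of the bAPC 3 G2/M cells and 76.3% of the others. The same state was common in G1 cells, where 25 of 42 bAPC 3 cells (59.5%) had Cenpa without Top2a, against 112 of 1220 (9.18%). Top2a itself was not lower in the G1 cells of bAPC 3 than in other G1 cells (log2 ratio 1.02). Without thinning, 28.6% of them had a Top2a UMI, against 17.5% of the other G1 cells. Depth moved with the G2/M result, since the G2/M cells of bAPC 3 held fewer UMIs. With both sets held to 19289 to 27645 UMIs (54 and 62 cells), Top2a was still 35.0 against 364 CPM (-3.38, -3.86 to -2.93), Cenpa 330 against 311 CPM (0.08, -0.11 to 0.28) and the Seurat G2/M list median -0.92. This depth match was chosen after the data were seen.

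**Figure D4:**
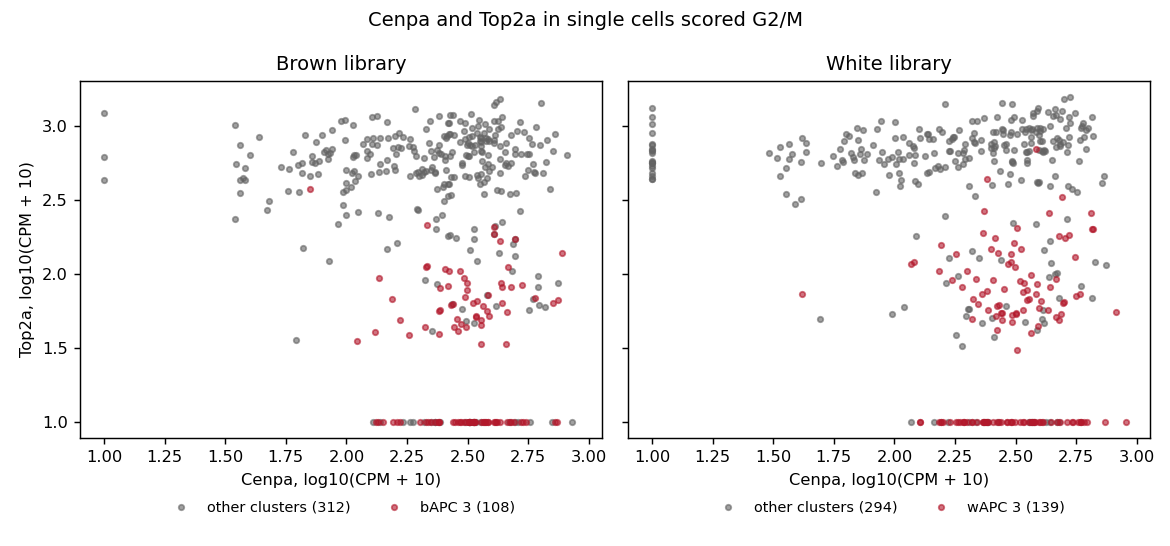
Cenpa (x axis) and Top2a (y axis) in single G2/M cells, both as log10 of CPM + 10 so that a cell with no UMI sits at 1, for the brown (left) and white (right) library. Most G2/M cells of bAPC 3 and of wAPC 3 have Cenpa with little or no Top2a, below most other G2/M cells, of which 76.3% in brown hold both after thinning.

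G1 cells of bAPC 3 held more mitotic messages than other G1 cells. Over 9044 genes, 141 (1.56%) were at least 2-fold higher and 253 (2.80%) lower in them. All 113 genes of the joined mitotic lists summed to 2760 CPM in the G1 cells of bAPC 3 and 1603 CPM in the other G1 cells. Cenpa had 147 against 15.7 CPM (log2 ratio 3.23, 2.96 to 3.48) and Birc5 81.4 against 11.5 CPM (2.83, 2.48 to 3.17). Tacc3, Cdca3 and Ccnb2 were at 2.71, 2.49 and 2.35. Pclaf, a PCNA-binding protein gene, had 88.9 against 13.8 CPM (2.69). These values are summed over 42 and 1220 cells. Of all bAPC 3 cells, 46 had scores within 0.05 of a boundary between phases, and the G1 cells among them were not counted.

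Within bAPC 3 itself the G2/M and G1 cells still differed widely: 322 of 9068 genes (3.55%) were at least 2-fold higher in its G2/M cells and 202 (2.23%) lower. The polo kinase gene Plk1 had 68.0 CPM in the G2/M cells and 2.78 in the G1 cells (4.61), Cdc20 203 and 14.8 CPM (3.77), and Mki67, the proliferation marker Ki-67, 176 and 18.5 CPM (3.25). Ccnb2 (0.93) and Cenpa (1.12) differed less. Genes of the Seurat G2/M list, such as Cdc20, Mki67, Ccnb2 and Cenpa, were used to call these phases, so a higher level in the G2/M cells was in part fixed by the calls. The 21 S-phase cells are too few for gene values, and the joined lists there had 4 of 103 genes 2-fold higher (1.80% of all genes were) and 22 lower (6.38%).

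Replication genes lay on both sides of 0 over all cells. None of 10 licensing genes (median -0.21) and none of 21 replication fork and nucleotide genes (median -0.09) passed 2-fold, as few genes of any kind did (0.299% higher and 1.61% lower). Pcna, the sliding clamp, had 60.3 against 77.6 CPM (-0.37), and Mcm2, a helicase subunit, 15.1 against 23.3 CPM (-0.63). Tyms, which makes thymidylate, was higher with 91.8 against 66.2 CPM (0.47), and bAPC 3 had the highest level of the 7 clusters for it and for Dut, Nasp, Rrm1, Rfc4 and Rfc5. For some of these bCAPs were close: Rrm1 was 92.7 against 92.4 CPM in bCAPs, Rfc4 35.6 against 34.9 and Tyms 91.8 against 86.3. Within G2/M cells all 21 fork genes were lower in bAPC 3 (median -0.90). Histone genes went both ways over all cells. Hist1h1b was low with 24.6 against 67.8 CPM (-1.46), as was Hist1h2ap with 36.5 against 94.8 CPM (-1.38). The H1 gene Hist1h1c was instead highest in bAPC 3 (110 CPM, next bFAPLs with 64.5), and Hist1h1e was 5th of 7 clusters. Hist1h2bc was high over all cells and within G2/M cells. Histone genes are near copies of each other, and reads may have been split between them.

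Among proteins that package chromatin, H2afz, an H2A variant, had 1806 against 920 CPM (0.97, 0.94 to 1.01), the highest of the 7 clusters. Hmgb1 had 888 against 516 CPM (0.78) and Hmgn2 299 against 163 CPM (0.87). Both encode abundant chromatin proteins. Within G2/M cells these 3 genes were near 0 (0.05, 0.07 and 0.05), while in G1 cells H2afz was 1480 against 539 CPM (1.46) and Hmgb1 802 against 391 CPM (1.04). Their G1 levels in bAPC 3 thus lay between the G1 and G2/M levels of the other clusters.

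Some of the genes that hold cells out of the cycle were low. Cdkn1a, the p21 inhibitor that p53 induces, had 86.5 CPM in bAPC 3 (-1.16, -1.31 to -1.01), against 129 in bAPC 5, 133 in bFAPLs, 184 in bAPC 4, 192 in bAPC 1, 220 in bCAPs and 235 in bAPC 2. It was thus the lowest of the 7, and it stayed low within G2/M cells (80.5 against 176 CPM, -1.13) and G1 cells (114 against 215 CPM, -0.92). Among 8 inhibitor genes (median -0.25) 3 were at least 2-fold lower, against 1.61% of all genes, with Cdkn2c at -1.57 and Cdkn2d at -1.16, and Cdkn3 alone was at least 2-fold higher. Cdkn1b, Cdkn1c, Cdkn2a and Cdkn2b lay in the middle of the 7 clusters. Of 15 p53 targets, 2 were lower (median -0.32), Cdkn1a and the antiproliferative gene Btg2 (-1.03), whereas Bax and Ccng1 were at 0.03 and 0.06. None of 10 G1 cyclins, kinases and pocket proteins passed 2-fold (median -0.24). Ccnd2, a D cyclin that growth factors induce, had 262 against 370 CPM (-0.50), and Rb1, the retinoblastoma protein gene, 10.5 against 19.9 CPM (-0.92).

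The adipogenic list had a median log2 ratio of -0.03 in bAPC 3 over the other brown cells. None of its 17 genes at 10 CPM (of 22) passed 2-fold, as few genes of any kind did (0.299% higher and 1.61% lower). Pparg, the master regulator of fat cell formation, had 74.9 CPM (67.0 to 83.4). The other clusters had 92.8 in bCAPs (86.3 to 99.6), 66.4 in bAPC 1 (62.7 to 70.3), 66.1 in bAPC 4, 47.6 in bAPC 2, 17.0 in bFAPLs and 12.4 in bAPC 5. bAPC 3 was second of 7, its interval overlapped that of bAPC 1, and its log2 ratio over the sum of the others was 0.42 (0.25 to 0.59). A Pparg UMI was found after thinning in 43.9% of bAPC 3 cells, 42.6% of bCAPs, 37.0% of bAPC 1 and 30.9% of all others. Glial cells of the brown library, which should lack Pparg, had 8.84 CPM with a UMI in 4.55% of 22 cells (median depth 17174.5, not thinned). In male cells alone (22 of bAPC 3) the ratio was 1.04.

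Pparg differed by phase. Within G2/M cells it was 82.4 against 41.5 CPM (log2 ratio 0.99, 0.75 to 1.23), and within G1 cells 63.9 against 62.1 CPM (0.04). The G2/M cells of bCAPs had 67.1 CPM (55.4 to 80.6), and this interval overlapped that of bAPC 3 (71.8 to 94.1). Those of bAPC 1 had 57.4 CPM, and the remaining clusters ran from 4.44 in bFAPLs to 32.2 in bAPC 2. The pooled ratio thus rested in part on clusters with little Pparg. In the depth-matched G2/M cells Pparg was 90.4 against 54.2 CPM (0.74, 0.31 to 1.17). Zfp423, a zinc finger regulator upstream of Pparg, had 0.41 over all cells, 0.73 within G2/M cells and 0.30 (-0.16 to 0.77) once these were matched for depth. Its level was higher in bCAPs than in bAPC 3 over all cells (62.7 against 56.6 CPM). In G2/M cells it was 74.8 CPM in bCAPs (62.3 to 89.0) and 65.4 in bAPC 3 (56.0 to 75.9). Ebf1, an early B-cell factor that acts with Pparg, was 943 against 880 CPM (0.10). The fatty acid carrier Fabp4, a Pparg target of committed cells, was lower with 92.4 against 132 CPM (-0.51) and the lipase Lpl with 294 against 367 CPM (-0.32). For both genes bCAPs were highest (302 and 611 CPM), bAPC 5 was lowest (24.8 and 108 CPM) and bAPC 3 was 4th of 7. The adipogenic list median within G2/M cells was 0.11. Thermogenic genes were near absent: 1 of 10 reached 10 CPM, Ucp1 had 1 UMI and Cidea had none (3 UMIs would be 0.685 CPM) in bAPC 3.

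bAPC 3 was low in the genes tied to bFAPLs. The FAPL-linked list had 5 of 9 genes at least 2-fold lower, against 1.61% of all genes, and all 9 below 0 (median -1.09). Serpinb1a, a protease inhibitor gene, had 5.48 CPM in bAPC 3 and 94.5 in bFAPLs, and the next were bCAPs with 15.8. Col4a1, a basement membrane collagen, had 172 CPM in bAPC 3, against 1269 in bFAPLs and 152 to 282 in the other 5 clusters. Hence the low ratio of Col4a1 over the sum (-1.11) was set by bFAPLs, and bAPC 3 was within the span of the rest. Of 11 precursor identity genes, 1 was at least 2-fold lower (1.61% of all genes were), the proteoglycan gene Lum (-1.12), with Dcn at -0.89. Prrx1, a mesenchymal homeobox gene, was 697 against 594 CPM (0.23), with bAPC 1 close to bAPC 3 at 680 CPM.

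Matrix genes were lower nearly throughout. The 20 genes of the fibrillar matrix list summed to 18839 CPM in bAPC 3 and 24991 in the others. Of these genes 19 were below 0 and 3 were at least 2-fold lower (median -0.40), against 1.61% of all genes. Col1a1, a chain of type I collagen, had 3676 against 4730 CPM (-0.36), Col3a1 1169 against 1917 CPM (-0.71), and Eln, elastin, 76.7 against 153 CPM. Ccn2, a matricellular protein, had 60.0 CPM in bAPC 3 against 69.2 in bAPC 1 and 117 to 505 in the remaining 5. Thbs1, thrombospondin, had 434 CPM against 584 to 1805 in the other 6, so bAPC 3 was the lowest. Tenascin, Tnc, was the exception with 349 against 285 CPM (0.29). The list median was -0.17 in G2/M cells and -0.45 in G1 cells.

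Other low genes of bAPC 3 were set by 1 or 2 other clusters or were low against all of them. Hp, haptoglobin, had 15.7 against 65.2 CPM (-2.05), but bCAPs had 308 CPM, bFAPLs 54.7 CPM and bAPC 1, bAPC 2, bAPC 4 and bAPC 5 had 14.1, 18.6, 12.0 and 2.79. Cemip, which breaks down hyaluronan, had 68.7 CPM in bAPC 3 against 160 in bCAPs and 868 in bAPC 4 (-1.99 over the sum). It was the lowest of the 7, as were Timp3, an inhibitor of matrix proteases, with 167 CPM against 255 to 1053, and Klf4, a stress-responsive transcription factor, with 26.0 CPM against 42.5 to 99.4. Dlgap1 had 23.7 CPM against 27.9 in bAPC 5 and 143 in bAPC 1. The contractile list had 2 of 11 genes at least 2-fold lower, against 1.61% of all genes (list median -0.18). Acta2, smooth muscle actin, was equal (4606.9 against 4590.5 CPM, 0.01), and Lmod1, an actin filament nucleator, was -1.46. All 11 immediate early genes were below 0 (median -0.56), with Fos at 122 against 179 CPM (-0.56). In G2/M cells their median was -0.03.

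Markers of other cell types were low in bAPC 3, and all lists but the mural one lay within 3 CPM of the other brown cells. Of the 7 glial genes 4 had no UMI, Sox10 among them, and the list summed to 15.5 CPM against 17.6 in the other brown cells, nearly all of it S100b (12.6 against 15.3 CPM). The 8 myeloid genes summed to 12.3 against 12.6 CPM, led by Lyz2, with 1 UMI of Ptprc. The 7 myogenic genes summed to 3.65 against 3.02 CPM and the 7 endothelial genes to 21.9 against 22.7 CPM, led by Egfl7 and with no UMI of Pecam1. The 8 mural genes summed to 55.0 against 104 CPM, led by Notch3. bFAPLs carried much of the latter sum, as with Rgs5, a regulator of G-protein signals in pericytes, at 76.8 CPM in bFAPLs and at most 8.53 CPM in any other cluster. The part of the mural genes in the contractile values was not tested. The 5 erythroid genes summed to 0.685 against 0.300 CPM, all of it Alas2 in bAPC 3. No doublet caller was run. Cells with at least 2 UMIs each of female and male genes numbered 1 in bAPC 3 and 20 in the others, and female cells made up 86.6% and 85.8% of the cells called 1 sex. The libraries shared 9 barcodes, 3 of them in labelled cells and none in bAPC 3.

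The white library offered a second culture. Its cluster wAPC 3 held 270 of 1999 labelled white cells (13.5%), 139 of them scored G2/M (51.5%, 45.3 to 57.6), against 17.0% in the other white clusters. Over 9022 genes, 17 (0.188%) were at least 2-fold higher in wAPC 3 than in the other white cells and 157 (1.74%) lower. The leading genes were Cenpa (199 against 57.8 CPM, 1.79), Ccnb2 (112 against 32.7 CPM, 1.78), Cdkn3 (1.58) and Kif20a (64.6 against 22.5 CPM, 1.52), and Top2a was again low (48.3 against 172 CPM, -1.83). Of the 27 genes 2-fold higher in bAPC 3, 12 (44.4%) were so in wAPC 3, which is 70.6% of the 17 in white. Of the 145 lower ones 62 (42.8%) were shared, 39.5% of the white ones. The 11 mitotic genes higher in bAPC 3 were all above 0 in wAPC 3 (median 0.99), and the 11 lower ones were all below 0 (median -1.76). These comparisons share no cells, but both clusters were drawn from the counts they are described by.

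The G2/M cells of wAPC 3 also had few UMIs and a low Top2a level. They held a median of 22902 UMIs, against 35257 in the G2/M cells of the other white clusters and 22113 in its own G1 cells. The 10 G2/M cells of wAPC 4 were also shallow (25158) and had 228 CPM of Top2a with 329 of Cenpa, so wAPC 3 was not alone in white. Over 9140 genes, 38 (0.416%) were 2-fold higher and 357 (3.91%) lower. Of the joined mitotic lists none of 112 was 2-fold higher, 49 were lower and the median was -0.88. The histone genes Hist1h2bc (2.21 in white, 1.93 in brown) and Hist1h1c (1.45 and 1.14) had the highest ratios among genes of at least 50 CPM in the G2/M cells of both depots. In the depth-matched brown G2/M cells they were lower, with Hist1h2bc at 192 against 96.2 CPM and Hist1h1c at 0.56 (0.21 to 0.91). There the ratios of Plxna4, a semaphorin receptor, at 1.60, of Snhg4 at 1.51 and of Sgk1, a serum-induced kinase, at 1.48 lay above both.

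**Figure D5:**
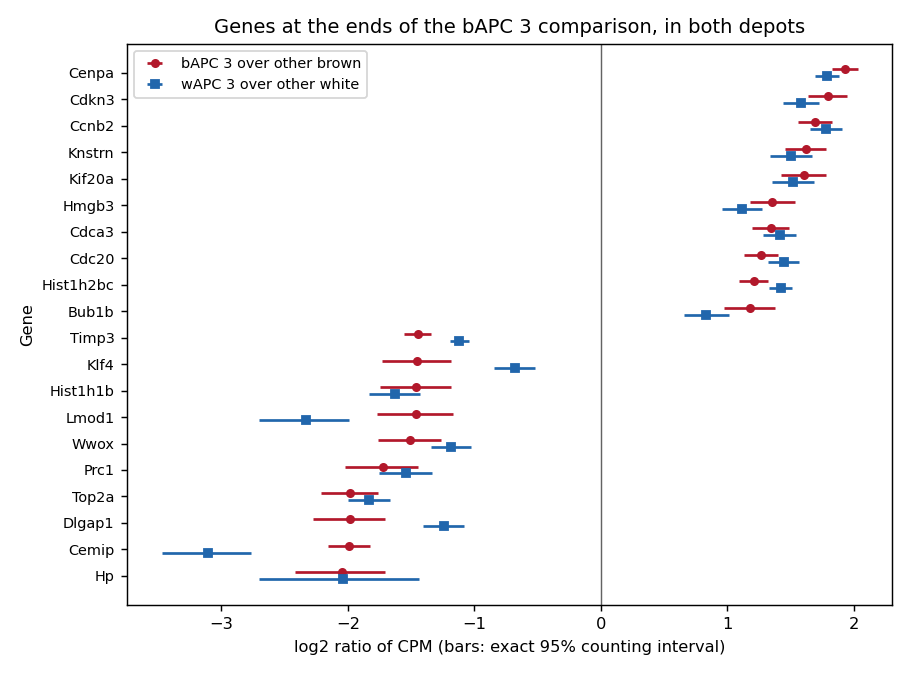
Log2 ratio of CPM (x axis) of the 10 highest and 10 lowest genes among those of at least 50 CPM, for bAPC 3 over the other brown cells (circles), with the ratio of the same genes for wAPC 3 over the other white cells (squares); bars are exact 95% counting intervals. All 20 genes lie on the same side of 0 in both depots, closest for Hp (-2.05 in brown, -2.03 in white) and farthest apart for Cemip (-1.99 and -3.11).

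Set directly against wAPC 3, bAPC 3 had 108 of 8962 genes (1.21%) at least 2-fold higher and 131 (1.46%) lower, and none of 91 genes of the joined mitotic lists among them (median 0.02). Depot and library cannot be told apart here. Col8a1, a short-chain collagen, had 251 against 24.1 CPM (3.38) and Ebf2, a brown lineage factor, 160 against 59.6 CPM (1.42). Hoxc10, a posterior homeobox gene, had no UMI in bAPC 3 (3 UMIs would be 0.685 CPM) against 100 CPM in wAPC 3, and Hoxc9 had 13.2 against 63.5 CPM (-2.26). The other brown and white cells, where 66 of 9063 genes (0.728%) were at least 2-fold higher in brown and 99 (1.09%) lower, differed in the same genes, with Col8a1 at 2.58, Ebf2 at 0.91 and Hoxc9 at -2.64 between them. Among the brown clusters, however, bAPC 3 had the highest level of Hoxc9, followed by bAPC 1 with 10.2 CPM. Zic1, a brown-depot transcription factor, had 30.4 CPM in bAPC 3 and 0 UMIs in wAPC 3.

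In its whole profile bAPC 3 was closest to bAPC 1 or to wAPC 3, depending on the measure. Spearman's rho of CPM across genes, which share a library and its base composition and are not replicates, was 0.969 with bAPC 1 (9058 genes), 0.965 with wAPC 3, 0.960 with bAPC 2 and 0.944 with bFAPLs, the lowest of the brown clusters. Without the cycle list genes it was 0.971 with bAPC 1 and 0.965 with wAPC 3, so the order did not rest on them. The median absolute log2 ratio per gene, with 1 CPM added to each level, was smallest with wAPC 3 (0.176), followed by bAPC 1 (0.193), and largest among the brown clusters with bAPC 2 (0.246), followed by bAPC 4 (0.231) and bFAPLs (0.225). By the nearest labelled neighbours outside its own cluster, after cycle scores were regressed, 88 cells (51.5%, 43.7 to 59.2) went to bAPC 2 and 69 (40.4%, 32.9 to 48.1) to bAPC 1, which made up 22.7% and 31.8% of the cells that could be chosen. Of the rest, 7 went to bCAPs (16.2% of those cells), 4 to bAPC 4 (7.77%), 3 to bAPC 5 (6.29%) and none to bFAPLs (15.3%). These measures thus did not name 1 nearest cluster, and bAPC 2, first by cell, was the farthest brown cluster by median absolute ratio. When its own labels were held out cell by cell, 106 bAPC 3 cells (62.0%) got their label back, against 84.5% of all 1999, and 106 of the 112 cells given that label were bAPC 3 (94.6%). Carrying the labels to all 5964 brown precursor cells that passed the study's filter gave 472 bAPC 3 cells (7.91%).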

How the data were processed

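UMI counts of 7009 brown and 5261 white cells were used as deposited. The authors made these count matrices with Cell Ranger 7.0.1 against mm10, per the submitters' processing notes. Cluster names came from the study's table of barcodes, held here for 1999 cells per depot. The study kept cells of 3900 to 7700 genes, 1.7 to 5% mitochondrial UMIs and 6000 to 60000 UMIs, regressed cycle scores and clustered on 10 components. Members and gene lists were chosen with earlier results of these data known.

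Here UMIs were summed over cells and scaled to CPM. Genes of at least 10 CPM in either sum were compared. Intervals were exact (Poisson for a level, Clopper-Pearson for a share, conditional binomial for a ratio). A gene without UMIs was given the limit of 3 counts. Phases were called with Seurat 5.3.0 (R 4.3.3) and its updated cycle lists. Cells were thinned to 10000 UMIs where shares were compared. Labels were carried over by the 15 nearest labelled cells on 10 components of 2000 variable genes. Scripts were tested on simulated data and ran in Python 3.11.15 (scikit-learn 1.9.0, pandas 2.3.3, scipy 1.17.1, numpy 2.4.6, matplotlib 3.10.9). No doublet caller was run. Depth per cell is given with the results, and the alternatives covered thinning, cell weights, deep cells, sex, filters and carried labels.

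The text named genes of the 32 lists (at most 6 a list by level, ratio or mention in the study) and, per comparison, the 10 highest and 10 lowest log2 ratios above 50 CPM. Gene positions are from GENCODE on GRCm38, and promoters are from RefSeq on GRCm38.p6.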

Additional observations from a re-analysis of the deposited data

How the results depend on the processing

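Of 59 alternative values of the main results, 51 stayed within the counting interval or spread of the reported value and 8 moved outside it. None reversed a called direction. The Kif20a log2 ratio of 1.60 became 1.99 with cells thinned to 10000 UMIs, 1.79 with cells weighted equally and 1.93 in male cells alone. The Seurat G2/M list median of 0.38 became 0.60 with thinning, 0.62 with equal weights and 0.62 at 50 CPM. In male cells alone (22 of bAPC 3, 250 others) Pparg went from 0.42 to 1.04 and the adipogenic list median from -0.03 to 0.19. The cause of these moves was not tested. No paired analysis was possible because each depot had 1 library and no animal was named. The absence of replicates, the label table held in part and the 42 G1 and 21 S cells of bAPC 3 limit all values.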
